A study of Mus musculus with 10 samples.

Results

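The genes described here are 10 components of the unfolded protein response of the endoplasmic reticulum (ER), measured in fatty mouse liver. They were taken by gene symbol, and all 10 were found among the 29657 genes of the deposited table. They comprise the regulators Atf6 and Xbp1, the chaperones Hspa5 and Hsp90b1, the cochaperones Dnajb9, Dnajc3 and Sdf2l1, the folding enzymes Pdia4 and Creld2, and Herpud1, a component of ER-associated degradation. Bulk liver RNA of C57BL/6 mice was sequenced after 8 weeks on CDAHFD, a high-fat diet of defined amino acids that lacks choline, which every animal of both groups received. The control group consisted of 5 wild-type libraries whose mice received AAV8-NC by vein, an adeno-associated virus labelled as the negative control. The other group consisted of 5 libraries from mice given AAV8-TBG-galectin-3 by vein, which the labels call a knockdown of galectin-3 in hepatocytes. The TBG promoter drives expression in hepatocytes, so other liver cells are not the labelled target, and no source used here gives the age or sex of the mice. The labels number the libraries as replicates without saying whether each is 1 mouse, so p-values measure the spread between these libraries.

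The unfolded protein response adjusts the folding capacity of the ER to its load of secretory proteins, which is high in hepatocytes. The sensor ATF6 is cut in the Golgi to release a transcription factor. The sensor IRE1 splices Xbp1 messenger RNA, and the sensor PERK slows translation and favours the translation of ATF4. ATF6 and spliced XBP1 induce chaperones such as HSPA5 (also called BiP or GRP78), folding enzymes and degradation factors, many through the ER stress response element (ERSE) in their promoters.

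The promoter sequences are shown because this element is what links many of these genes as targets. RefSeq promoters of build GRCm38.p6 were matched by symbol for 9 of the 10 genes, all but Atf6. The 250 bases before each annotated start were searched on both strands for ERSE (CCAAT, then 9 bases of any kind, then CCACG), for ERSE-II (ATTGG, then 1 base of any kind, then CCACG) and for the UPRE core (TGACGTGG). ERSE was present in 4 of the 9 promoters and ERSE-II in 1, against 0.13% and 0.037% of 27025 genes in the table. The genes were named as targets of this pathway, so this share is a description. The UPRE core was in 0 of the 9 and in 0.603% of all genes. Each match is given below, 5′ to 3′ on the strand that carries the motif, with its fixed letters in capitals and the spacer in lower case. Hsp90b1 held a pair of matches, 1 on each strand.
Hspa5: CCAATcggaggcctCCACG
Hsp90b1, strand of the gene: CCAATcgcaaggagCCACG
Hsp90b1, opposite strand: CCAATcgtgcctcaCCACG
Dnajc3: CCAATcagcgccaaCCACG
Creld2, opposite strand: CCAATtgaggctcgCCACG
Herpud1, ERSE-II: ATTGGgCCACG

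Whole upstream windows are printed for Hspa5, the reference target of the pathway, for Dnajc3, the promoter-matched gene that was called lower, and for Herpud1, whose values pointed the other way. Capitals mark the motif letters. The Hspa5 window is chr2:34771840-34772089 on the plus strand, and its match began 65 bases before the start. The Dnajc3 window is chr14:118937682-118937931 on the plus strand, with the match from 105 bases before the start. The Herpud1 window is chr8:94386179-94386428 on the plus strand, with the match from 52 bases before the start.
Hspa5: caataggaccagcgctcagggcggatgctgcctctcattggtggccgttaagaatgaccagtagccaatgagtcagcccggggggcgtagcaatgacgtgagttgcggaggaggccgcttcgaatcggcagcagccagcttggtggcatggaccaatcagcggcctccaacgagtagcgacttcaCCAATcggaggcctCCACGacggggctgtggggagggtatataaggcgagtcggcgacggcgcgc
Dnajc3: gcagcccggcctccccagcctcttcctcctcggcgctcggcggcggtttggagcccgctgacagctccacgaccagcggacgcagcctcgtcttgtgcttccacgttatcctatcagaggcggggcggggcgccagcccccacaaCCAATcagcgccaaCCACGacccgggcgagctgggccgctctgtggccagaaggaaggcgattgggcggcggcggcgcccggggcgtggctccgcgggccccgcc
Herpud1: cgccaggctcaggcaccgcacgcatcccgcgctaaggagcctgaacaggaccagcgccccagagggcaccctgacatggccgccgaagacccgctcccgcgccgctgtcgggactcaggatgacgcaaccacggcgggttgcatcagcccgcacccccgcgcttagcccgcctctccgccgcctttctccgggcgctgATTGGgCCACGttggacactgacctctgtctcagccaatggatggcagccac

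Expression was given as FPKM, fragments scaled by transcript length and library size. Whole reads could not be recovered from the FPKM steps, so the depth behind each value is unknown here, and precision rests on the 5 libraries of a group. Between 21653 and 23079 genes were above 0 in each library. Hepatocyte markers were abundant in every library (Alb at 21960 to 30351 FPKM). Lgals3, the targeted gene, stood at 70.8 ± 22.9 FPKM in the control group and 74.2 ± 20.1 FPKM in the other (SD, n = 5 each, limma log2 fold change 0.08, adjusted p = 0.856). The label was thus not matched by a lower level in whole liver, and the group is called labelled knockdown. In whole liver, fewer cells of a type and less RNA per cell cannot be told apart.

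A gene was tested where 5 or more libraries reached 0.5 FPKM, which held for all 10 genes and for 13471 genes in all. With limma and a threshold of 0.05 on the adjusted p, Atf6 and Dnajc3 were called lower with the labelled knockdown and 0 of the 10 were called higher. Over all genes tested, 9.65% were called lower and 7.13% higher (16.8% in either direction), and the 2 of 10 are read against that share. Without control 5 the count was 3 (Atf6, Dnajc3 and Sdf2l1). It was 2 without control 1, where Hsp90b1 was called and Dnajc3 was not, and 2 without labelled knockdown 4, with Atf6 and Dnajc3. Without any other single library Atf6 alone was called. Over all genes these fits without 1 library called 533 to 1733 lower, so each count is read against its own fit. Of all genes, 1254 of 13333 were lower without control 5 and 959 of 13308 without control 1. Without labelled knockdown 4, 1733 of 13315 were lower. The groups overlapped for each of the 10 genes, while 13.1% of all tested genes did not overlap (5.66% higher and 7.48% lower). The median log2 fold change was -0.26 over the 10 genes, with 7 below 0 and 3 above. Over all 13471 genes tested it was -0.04, with 7495 below 0 and 5976 above. Fold changes are labelled knockdown minus control in log2(FPKM + 1), so changes of low genes are understated.

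**Figure D1:**
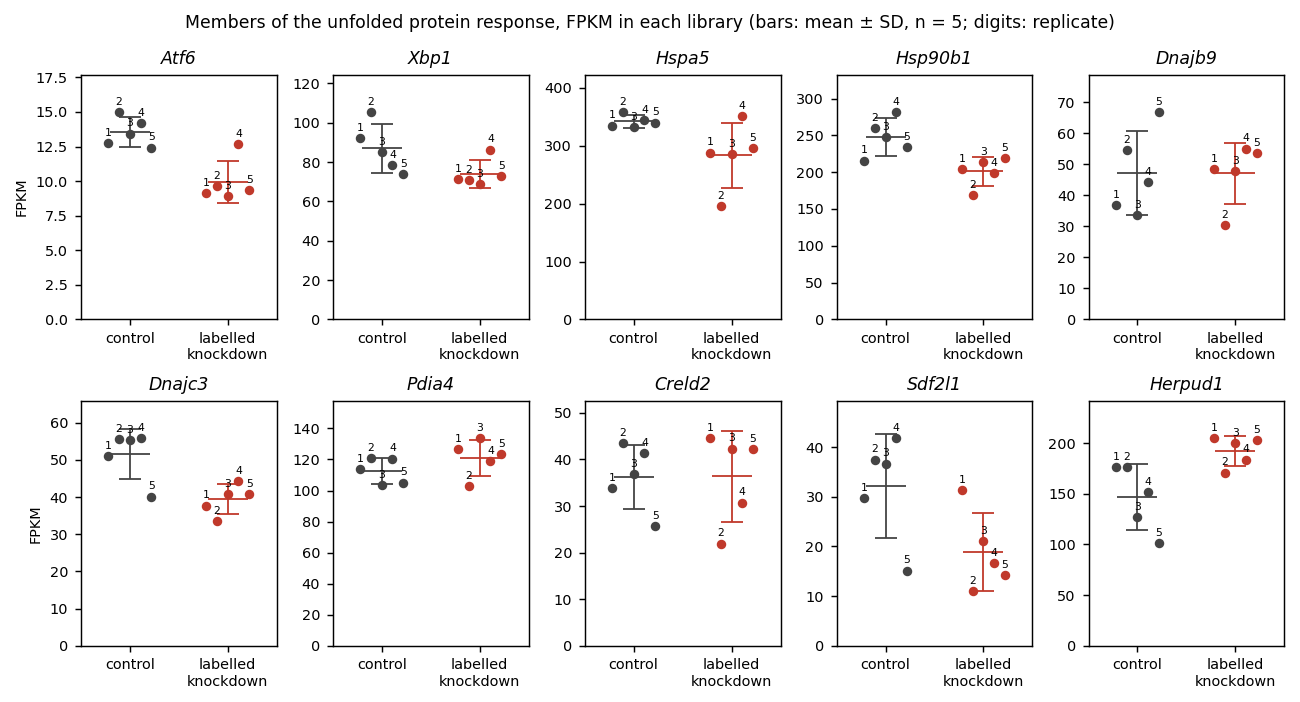
FPKM (vertical axes, from 0) of the 10 genes in each of the 5 control (grey) and 5 labelled knockdown (red) libraries, with digits for the replicate and bars for the mean ± SD. Atf6 lay at 8.89 to 9.66 FPKM in 4 labelled knockdown libraries, below all controls, and labelled knockdown 2 was low in most panels.

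Atf6, which encodes the membrane-bound sensor and transcription factor, was the lowest of the 10 genes in FPKM. The control libraries 1 to 5 held 12.7, 15.0, 13.4, 14.2 and 12.4 FPKM. In labelled knockdown 1 to 5 the values were 9.13, 9.66, 8.89, 12.7 and 9.34 FPKM. Labelled knockdown 4 lay within the control range, and the other 4 lay below every control. Atf6 fell from 13.6 ± 1.06 to 9.94 ± 1.55 FPKM (SD, n = 5 each), a log2 fold change of -0.42 with an SE of 0.10 (limma adjusted p = 0.0183). The 95% confidence interval of the fold ran from 0.645 to 0.865. This call held in each of 12 other settings of the processing and in each of the 10 fits without 1 library. Some of these lay close to the threshold. The largest limma adjusted p of Atf6 was 0.0488 among the settings and 0.0487 among the fits without 1 library. The authors' deposited table gave Atf6 a ratio of means of 0.733 and a q-value of 0.00391.

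Xbp1 encodes the transcription factor that IRE1 activates by splicing its messenger RNA. Gene-level FPKM does not separate the spliced from the unspliced form. Control values were 92.4, 105.5, 85.1, 78.5 and 74.0 FPKM for libraries 1 to 5, and those of the labelled knockdown were 71.4, 70.9, 68.8, 86.3 and 72.9 FPKM. Labelled knockdown 4 was again the exception, above 3 of the controls, and the other 4 lay below every control. The means were 87.1 ± 12.4 and 74.1 ± 7.00 FPKM, with a log2 fold change of -0.22 and an SE of 0.11 (limma adjusted p = 0.160). The interval of the Xbp1 fold, 0.730 to 1.004, includes no change.

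Hspa5, the main luminal chaperone and the protein that holds the sensors inactive, was the most abundant of the 10 genes in FPKM. It varied little among controls, at 335, 359, 332, 345 and 340 FPKM. The labelled knockdown libraries held 288, 196, 285, 352 and 296 FPKM. Of these, 4 lay below every control and labelled knockdown 4 lay inside the control range. The means were 342 ± 10.5 and 283 ± 56.0 FPKM. In limma Hspa5 differed by -0.29 on the log2 scale (SE 0.13, adjusted p = 0.143). Labelled knockdown 2 and 4 weighed on this value in opposite directions. It was -0.17 without labelled knockdown 2 (adjusted p = 0.233) and -0.38 without labelled knockdown 4 (adjusted p = 0.0565).

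Hsp90b1, which encodes GRP94, the HSP90 of the ER lumen, held 216, 260, 248, 282 and 234 FPKM in the controls. It held 204, 169, 214, 198 and 220 FPKM in the labelled knockdown libraries. Each of these was below the control mean, and 4 were below the lowest control. The means were 248 ± 25.2 and 201 ± 19.6 FPKM, with a log2 fold change of -0.30 and an SE of 0.10 (limma adjusted p = 0.0574). Leaving out control 1 brought the adjusted p of Hsp90b1 to 0.0475.

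Dnajc3 encodes p58IPK, a cochaperone of HSPA5 that delivers unfolded proteins. Its control values were 51.0, 55.6, 55.3, 55.8 and 40.1 FPKM, with control 5 apart from the rest. Labelled knockdown values were 37.7, 33.4, 40.7, 44.2 and 40.8 FPKM. Every labelled knockdown library was below the control mean, and 3 of them lay above control 5. The mean of Dnajc3 fell from 51.6 ± 6.71 FPKM to 39.4 ± 4.03 FPKM. In limma this was -0.38 ± 0.11 on the log2 scale (SE, adjusted p = 0.0365). Of 12 other settings, 7 kept the Dnajc3 call. Of the 10 fits that each left out 1 library, 2 kept it, those without control 5 or labelled knockdown 4. In the other 8 fits the adjusted p lay between 0.0594 and 0.0865, and with a replicate block it was 0.0586.

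Dnajb9 encodes ERdj4, a cochaperone that also restrains IRE1. The controls were spread widely, at 36.9, 54.6, 33.5, 44.2 and 66.9 FPKM. In labelled knockdown 1 to 5 it stood at 48.3, 30.5, 47.9, 55.0 and 53.5 FPKM. Library 2 was below every control and the other 4 were within the control range. The means were 47.2 ± 13.7 and 47.1 ± 9.77 FPKM (log2 fold change 0.01, limma adjusted p = 0.975), with an interval of the fold from 0.742 to 1.37. Its sign held in only 3 of the 10 fits that left out 1 library.

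Sdf2l1, which encodes a soluble partner of the HSPA5 chaperone complex, showed the largest difference in log2 fold change of the 10 genes and also the widest spread. The controls held 29.8, 37.5, 36.7, 41.8 and 15.1 FPKM. The labelled knockdown libraries held 31.3, 11.0, 21.02, 16.6 and 14.2 FPKM. Control 5 lay among the labelled knockdown values, and labelled knockdown 1 lay among the controls. The means were 32.2 ± 10.5 and 18.8 ± 7.88 FPKM, with a log2 fold change of -0.75 and an SE of 0.30 (limma adjusted p = 0.102). More than 1 library weighed on this result. Without control 5 the log2 fold change of Sdf2l1 was -0.99 with a limma adjusted p of 0.0240. It was -0.95 without labelled knockdown 1 (adjusted p = 0.0537) and -0.59 without labelled knockdown 2 (adjusted p = 0.202).

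Pdia4, which encodes ERp72, a disulfide isomerase, stood at 114, 121, 103.5, 121 and 105 FPKM in the controls. In labelled knockdown 1 to 5 it stood at 127, 103, 134, 119 and 124 FPKM. Of these, 3 lay above every control and library 2 lay below every control. The means were 113 ± 8.25 and 121 ± 11.6 FPKM (log2 fold change 0.10, limma adjusted p = 0.449), with an interval of the fold from 0.938 to 1.23.

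Creld2 encodes an ER-resident protein that is induced by ER stress. Its control values were 33.9, 43.5, 36.9, 41.3 and 25.7 FPKM, with the lowest in control 5. The labelled knockdown libraries split, at 44.6, 21.9, 42.3, 30.8 and 42.3 FPKM. The means were 36.3 ± 6.96 and 36.4 ± 9.72 FPKM, with a log2 fold change of -0.02 (limma adjusted p = 0.956) and an interval of the fold from 0.730 to 1.33. Median-of-ratios or upper-quartile scaling turned the sign of the Creld2 difference.

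Herpud1, a membrane protein that organizes the degradation complex around the ubiquitin ligase HRD1, had the largest positive difference. The control libraries held 177, 176, 127, 152 and 101 FPKM, again with control 5 the lowest. Labelled knockdown libraries held 205, 171, 199.6, 184 and 203 FPKM. Each was above the control mean and 4 were above the highest control. The means were 146 ± 32.6 and 192 ± 14.7 FPKM, with a log2 fold change of 0.42 and an SE of 0.15 (limma adjusted p = 0.0702). Herpud1 passed the threshold with median-of-ratios scaling (adjusted p = 0.0482) and did not in the other 11 settings. The authors' deposited table gave Herpud1 a q-value of 0.0344 and Dnajc3 a q-value of 0.0409. It marked none of the 10 genes as significant.

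**Figure D2:**
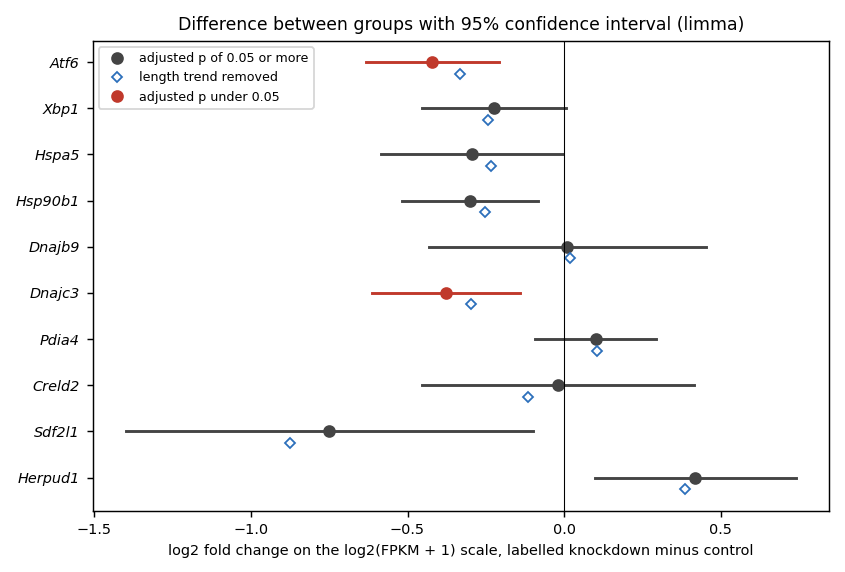
Log2 fold change (horizontal axis, labelled knockdown minus control, log2(FPKM + 1) scale) of the 10 genes with its 95% confidence interval from limma. Atf6 and Dnajc3 (red) passed at -0.42 and -0.38, and open diamonds show the values after the trend with transcript length was removed.

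By the exact two-sided permutation test over 252 assignments, with no adjustment, p was 0.0159 for Atf6 and for Hsp90b1. In the same exact test p was 0.0317 for Dnajc3, 0.0238 for Herpud1 and 0.0397 for Hspa5. It was 0.0635 for Xbp1, 0.0794 for Sdf2l1, 0.214 for Pdia4, 0.952 for Creld2 and 0.960 for Dnajb9. The smallest p that this permutation test allows is 0.00794.

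Because FPKM is scaled by transcript length, the levels of these genes can be set in order. In the control group the order was Hspa5, Hsp90b1, Herpud1, Pdia4, Xbp1, Dnajc3, Dnajb9, Creld2, Sdf2l1 and Atf6. Hspa5, Hsp90b1 and Atf6 were separated from their neighbours without overlap, and Xbp1 was separated from Dnajc3. The margin of Atf6 was narrow, its highest control at 15.01 FPKM and the lowest of Sdf2l1 at 15.12 FPKM. The ranges of Herpud1 and Pdia4, of Pdia4 and Xbp1, and of each neighbouring pair from Dnajc3 to Sdf2l1 overlapped. In the labelled knockdown group Dnajb9 stood before Dnajc3, and the order was otherwise the same. There the ranges of Hspa5 and Hsp90b1, of Hsp90b1 and Herpud1, and of each neighbouring pair from Dnajb9 down to Atf6 overlapped.

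The libraries differed among themselves across several of the genes. Labelled knockdown 2 was below all 5 controls for 9 of the 10 genes, all but Herpud1, and had the lowest value of its group for 8. Its median departure from the control mean was -0.56 on the log2(FPKM + 1) scale, against -0.23 to -0.05 in the other labelled knockdown libraries. Labelled knockdown 4 was below all controls for 1 gene, Hsp90b1, although it belongs to the same group. Control 5 had the lowest value of its group for 6 genes and a median departure of -0.17. The FPKM of the 10 genes summed to 1014 to 1228 in the controls, to 816 in labelled knockdown 2 and to 1062 to 1098 in the other labelled knockdown libraries. Without both control 5 and labelled knockdown 2, an alternative chosen after seeing the data, Atf6, Dnajc3 and Sdf2l1 were called lower. Their limma adjusted p were then 0.0352, 0.0204 and 0.0356. Over all 13143 genes tested in that fit, 883 were called lower and 841 higher.

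**Figure D3:**
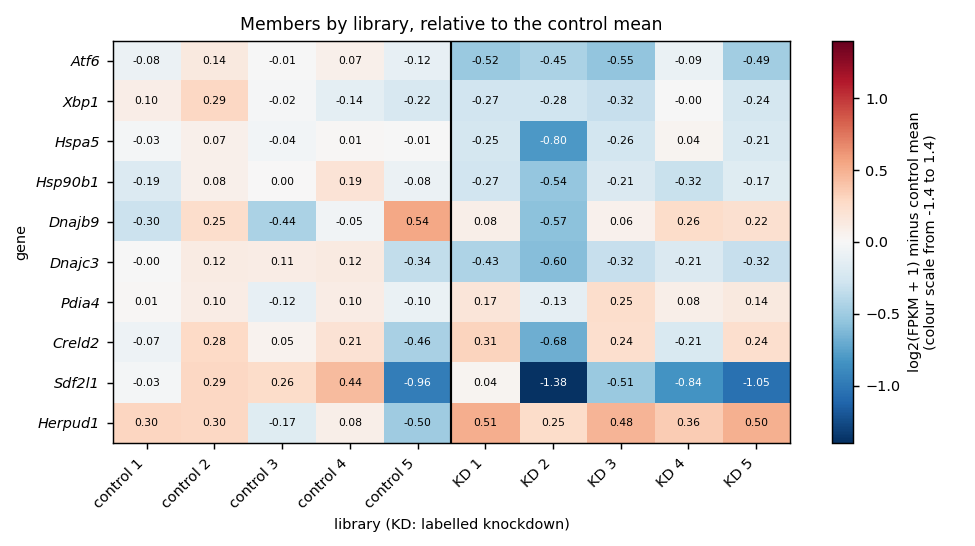
Departure of each library (columns) from the control mean for each gene (rows), in log2(FPKM + 1), as colour and number. Labelled knockdown 2 reaches -1.38 for Sdf2l1 and -0.80 for Hspa5, while Herpud1 is above the control mean in all 5 labelled knockdown libraries.

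Variation within groups was compared through Hspa5, after each group mean had been taken off, over the 10 libraries. All 9 other genes had a positive Pearson r with Hspa5, and 0 of 9 passed after Benjamini-Hochberg adjustment by a two-sided permutation test. The highest was Dnajb9 (r = 0.679, permutation p = 0.0264, adjusted 0.222, Spearman rho = 0.709, permutation p = 0.0275, adjusted 0.248). Leaving out labelled knockdown 2 and 4, the libraries farthest from the median of Hspa5, gave r = 0.56 for Dnajb9 and 0.637 for Creld2. Without the same pair of libraries r dropped for Dnajc3 from 0.586 to 0.207, for Atf6 from 0.457 to 0.157 and for Sdf2l1 from 0.343 to 0.162. It also dropped for Xbp1, from 0.388 to 0.276. It rose for Hsp90b1 from 0.570 to 0.613 and for Pdia4 from 0.610 to 0.636. For Creld2 it rose from 0.537 to 0.637 and for Herpud1 from 0.223 to 0.378. Over all 10 libraries the lowest of the 9 was Herpud1 (r = 0.223, permutation p = 0.503, adjusted 0.503). Among 5510 genes averaging 5 FPKM or more, the 5 most like Hspa5 in these deviations were Srp14, Lrrc47, Srm, Trim27 and Lrrc59. Their r ran from 0.93 to 0.94 over the 10 libraries, and Dnajb9 ranked 312th by the same measure. They were picked as the highest of 5510 values over 10 libraries, so high r follows in part from the picking. Their r without labelled knockdown 2 and 4 was not computed. None of these 5 passed the limma test between the groups.

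The trend with transcript length differed between the groups, and the fit was repeated with this trend removed. Removal also takes away any group difference that follows length, so it cannot measure the part of length in the results. Per doubling of length, the departure of a library from the gene means was 0.03 ± 0.01 in controls and -0.03 ± 0.02 with the labelled knockdown (log2, SD, n = 5 each). The gene means were taken over both groups, so these group values are opposite by construction and only their difference is informative. Atf6 and Dnajc3, with longest transcripts of 7246 and 5141 bases, belong to the longest class of 5, whose median log2 fold change was -0.11. Sdf2l1 and Creld2, with 1108 and 1366 bases, belong to the shortest class, whose median was 0.14. After removal of the trend Atf6 stood at -0.33 (limma adjusted p = 0.0444) and Dnajc3 at -0.30 (adjusted p = 0.102). Sdf2l1 moved the other way, to -0.88 (adjusted p = 0.0776), and Herpud1 to 0.39 (adjusted p = 0.101).

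**Figure D4:**
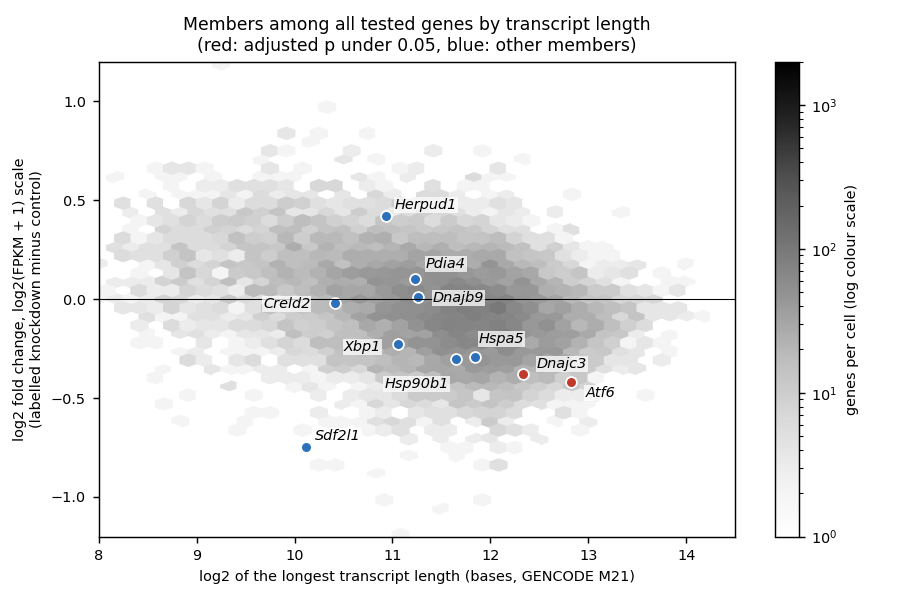
Log2 fold change (vertical axis, log2(FPKM + 1) scale) against log2 of the longest transcript length in bases (horizontal axis) for tested genes as grey cells, with the 10 genes marked. The grey cloud slopes down from short to long transcripts, Atf6 and Dnajc3 (red) lie at the long end, and Sdf2l1 lies below the cloud of short transcripts.

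The rest of the pathway was described by lists chosen for their function. Counts of the limma fit described above are read against the 9.65% called lower and 7.13% called higher over all genes tested. Totals over all genes moved between fits, so counts in other fits are read against their own totals. Without control 2, 492 genes were higher and 533 lower of 13303, and without control 3, 440 and 615 of 13336. Without labelled knockdown 4 they were 954 and 1733 of 13315. They were 511 and 682 of 29657 with no filter, and 658 and 803 of 13187 with the length trend removed. Of 11 other sensors and ER membrane regulators, 3 were called lower and 0 higher, and the median log2 fold change was -0.21. None of the 11 was called without control 3, control 4 or labelled knockdown 5, or with no filter on low values, and 1 was called without control 2 or labelled knockdown 1 or 3. Ern1, which encodes IRE1, fell from 17.0 ± 0.637 to 13.4 ± 1.80 FPKM without overlap between the groups (limma adjusted p = 0.0312). With the length trend removed the adjusted p of Ern1 was 0.0876. Creb3l1 (log2 fold change -0.51, limma adjusted p = 0.0249) and Creb3l3 (-0.42, adjusted p = 0.0477), which encode related membrane-bound transcription factors, were also lower. After removal of the length trend Creb3l3 had an adjusted p of 0.0552, leaving 1 call in this list. Eif2ak3, which encodes PERK, stood at 10.9 ± 2.45 and 7.51 ± 1.51 FPKM (adjusted p = 0.0558). Atf6b, the paralog of Atf6, stood at 12.9 ± 0.984 and 12.5 ± 1.31 FPKM (adjusted p = 0.779).

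The PERK arm and ATF4 targets went in both directions. Of 13 tested genes 2 were lower and 3 higher, the median being 0.13 in log2 fold change. Ddit4, an inhibitor of mTORC1, rose (2.19, limma adjusted p = 0.0101), as did Sesn2, another stress-induced inhibitor (0.50, adjusted p = 0.0348). Psat1, an enzyme of serine synthesis (-0.95, adjusted p = 0.0133), and Asns, asparagine synthetase (-0.66, adjusted p = 0.0308), fell. Atf4, named after its value was seen, was the third higher gene, at 80.2 ± 5.94 and 113 ± 26.6 FPKM (adjusted p = 0.0455), and with the length trend removed its adjusted p was 0.0669. The list had 1 gene higher without control 1, 3 or 4 or labelled knockdown 1, 4 or 5, and 4 without labelled knockdown 2. It had 1 gene lower without control 2, 3 or 4 or labelled knockdown 1, 2 or 5. Ddit3, which encodes CHOP, stood at 23.1 ± 2.50 and 42.2 ± 16.5 FPKM (adjusted p = 0.0535).

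Of 15 other chaperones and cochaperones, 1 was higher and 3 were lower, with a median log2 fold change of -0.07. Canx, the membrane lectin chaperone, fell from 73.0 ± 5.39 to 48.9 ± 6.94 FPKM (limma adjusted p = 0.00944), while Calr, its soluble relative, stood at 297 ± 44.6 and 261 ± 28.0 FPKM (adjusted p = 0.327). Dnajc10, a disulfide reductase (-0.54, adjusted p = 0.0127), and Sec63, a translocation cochaperone (-0.23, adjusted p = 0.0322), fell. Fkbp2, a prolyl isomerase of the ER, rose (0.61, adjusted p = 0.0204), and without labelled knockdown 2 there were 2 higher genes in this list. In the disulfide list 2 of 14 were lower and 0 higher (median -0.17). P4hb, the most abundant isomerase, fell from 782 ± 29.5 to 622 ± 31.1 FPKM (adjusted p = 0.0202), and Tmx1 fell by 0.34 on the log2 scale (adjusted p = 0.0287). The disulfide list had 5 genes lower without control 5, 1 without control 1, 2 or 3 or labelled knockdown 1, 2 or 3, and 0 with a replicate block.

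In the degradation list, to which Herpud1 is closest in function, 4 of 22 were lower and 1 was higher (median log2 fold change -0.15). Vcp, the ATPase that extracts proteins from the membrane (-0.43, limma adjusted p = 0.00944), and Edem1, a mannose-trimming factor (-0.24, adjusted p = 0.0432), fell. Herpud2, the paralog of Herpud1 and named after its value was seen, fell too (-0.30, adjusted p = 0.0465). Rnf5, a ubiquitin ligase, rose (0.30, adjusted p = 0.0291). Syvn1, which encodes HRD1, the partner of HERPUD1, stood at 31.4 ± 5.15 and 34.4 ± 9.36 FPKM (adjusted p = 0.723). The count of lower genes was 2 with the length trend removed and also 2 in 7 of the 10 fits that left out 1 library, all but those without control 1, control 5 or labelled knockdown 4. In 6 of the 10 fits, those without control 1, 2 or 3 or labelled knockdown 1, 3 or 5, no gene of the list was called higher, and without labelled knockdown 2 there were 2.

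Of 27 genes of translocation, N-glycosylation and export, 4 were lower and 1 was higher (median log2 fold change -0.09). Rpn2 (-0.41, limma adjusted p = 0.0163) and Stt3a (-0.38, adjusted p = 0.0264), subunits of the oligosaccharyltransferase, fell. Srpr, the receptor of the signal recognition particle (-0.38, adjusted p = 0.0376), and Stt3b, named after its value was seen (-0.28, adjusted p = 0.0482), fell as well. Sec11c, a signal peptidase subunit, rose (0.31, adjusted p = 0.0418). With the length trend removed, 2 genes of this list were lower. The count was 1 without control 2, control 4 or labelled knockdown 2, and 6 without labelled knockdown 4. It was 2 without control 1, control 3 or labelled knockdown 1, 3 or 5. Of the fits that left out 1 library, those without labelled knockdown 2 or 4 kept the call of Sec11c.

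Among the named genes of these lists, the calls of Ddit4, Psat1, Canx, Dnajc10, Fkbp2, Vcp and Rpn2 held in all 10 fits without 1 library. Those of P4hb held in 9, of Creb3l1 in 7, of Stt3a in 6 and of Tmx1 in 5, and those of Asns and Rnf5 in 4. Calls of Ern1, Sec63 and Herpud2 held in 3, of Sesn2, Edem1, Srpr, Sec11c, Atf4 and Stt3b in 2 and of Creb3l3 in 1. Removal of the length trend ended the calls of Ern1, Creb3l3, Atf4, Sec63, Rnf5, Edem1, Herpud2, Stt3a, Stt3b and Srpr.

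**Figure D5:**
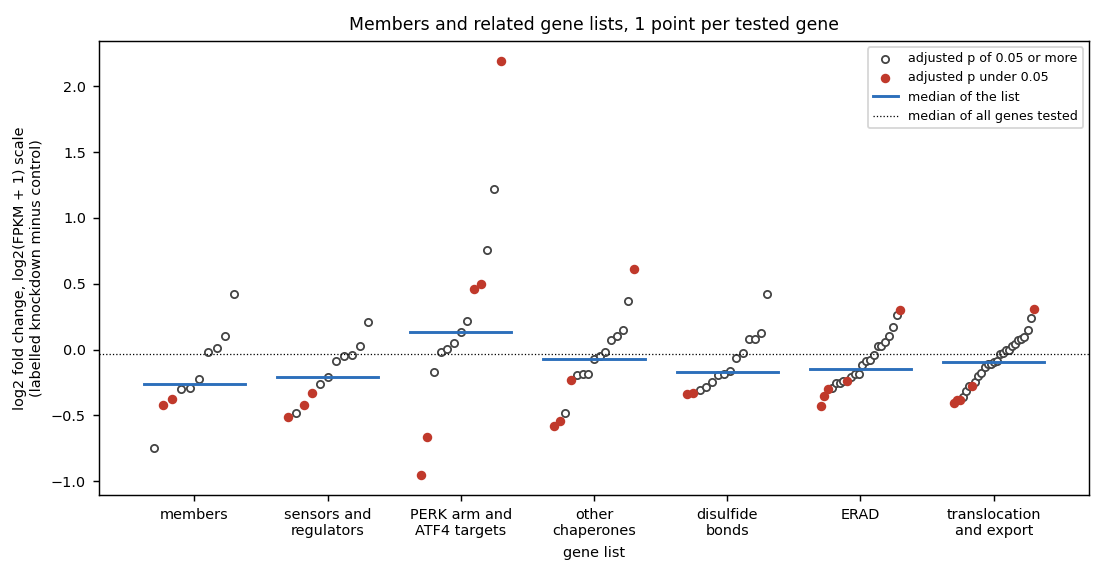
Log2 fold change (vertical axis, log2(FPKM + 1) scale, labelled knockdown minus control) of every tested gene of the 10 members and of 6 related lists (horizontal axis), with filled points for a limma adjusted p under 0.05 and blue lines for medians. The medians run from -0.26 for the members to 0.13 for the PERK arm and ATF4 targets, beside -0.04 for all genes tested.

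ERSE was found upstream of 6 of the 83 genes of these lists that matched a promoter, namely Calr, Canx, Derl3, Ero1b, Pdia6 and Syvn1. Canx alone of these 6 passed the limma test. The UPRE core was found upstream of 5 of the 83 genes, of which Vcp alone passed. Among the members with ERSE, the log2 fold changes were -0.38 for Dnajc3, -0.30 for Hsp90b1, -0.29 for Hspa5 and -0.02 for Creld2. Without an exact ERSE match, they were -0.75 for Sdf2l1, -0.22 for Xbp1, 0.01 for Dnajb9 and 0.10 for Pdia4. Herpud1, with ERSE-II, stood at 0.42.

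Markers of other liver cells are given beside these results, and their part in them was not tested. The summed levels of each cell type overlapped between the groups. Of all tested genes 9.65% were called lower, and in the fits without 1 library 533 to 1733 genes were. Of 11 tested Kupffer cell markers 2 were lower and 0 higher, and their summed level was 260 to 372 FPKM in the controls and 201 to 312 FPKM in the labelled knockdown libraries. Of 10 stellate cell markers 3 were lower, with sums of 109 to 132 and 57.8 to 121 FPKM. The counts without 1 library ran from 1 to 5 for stellate cells, with 5 without labelled knockdown 4 and 1 without control 1, 2, 3 or 4 or labelled knockdown 2 or 3. For Kupffer cells they ran from 2 to 5, with 5 without control 5 and 4 without labelled knockdown 4, and for endothelial cells from 0 to 2, with 2 without control 4 or labelled knockdown 4 and 0 in the other 8 fits. Of 10 endothelial markers 1 was lower, with sums of 29.6 to 49.4 and 27.9 to 39.1 FPKM, and of 6 tested cholangiocyte markers 0 were called, with sums of 135 to 387 and 50.1 to 313 FPKM. Of 12 plasma and B cell markers, 3 passed the filter and 0 were called, with sums of 10.5 to 17.3 FPKM in the controls and 9.18 to 23.3 FPKM in the labelled knockdown libraries. Most of that sum was Igkc, at 7.16 and 8.25 FPKM on average, and Ighm, at 3.42 and 3.16 FPKM. Jchain averaged 0.276 and 0.324 FPKM and Mzb1 0.226 and 0.182 FPKM, and Tnfrsf17 was listed at 0 in all 5 controls and in 4 of the 5 labelled knockdown libraries. Hepatocyte markers went in both directions, with 2 of 10 higher and 3 lower. The median log2 fold change was -0.40 over Kupffer cell markers, -0.34 over stellate cell markers and -0.25 over endothelial markers. It was -0.46 over cholangiocyte markers, -0.05 over plasma and B cell markers and -0.06 over hepatocyte markers. Beside these stand -0.26 over the 10 genes and -0.04 over all genes tested.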

How the data were processed

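Bulk poly(A) liver RNA of 10 libraries, 5 per group, was analysed, grouped by the sample titles. Tools named in the submitters' processing notes are StringTie 1.3.4d, HISAT2 2.0.4 and cutadapt 1.9. The genome build listed there is human while the deposited identifiers are mouse, so no coordinates are taken from the deposited table, and those of the promoters come from RefSeq. The authors deposited FPKM per library, with the ratio of group means, its log2 value, and p-value and q-value of a test that no source used here names. These columns were read as deposited, named per the file headers, and 0 columns of sample values were left unmapped.

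Low FPKM values were whole multiples of 1 step for only 10.5 to 13.7% of values (tolerance 0.02). FPKM were taken as log2(FPKM + 1), genes with at least 0.5 FPKM in at least 5 libraries were kept, and limma 3.58.1 (R 4.3.3) compared the groups (mean-variance trend, two-sided, Benjamini-Hochberg over all 13471 genes). The fit was tested on simulated data. Transcript length was that of the longest GENCODE M21 transcript, for 97.9% of tested genes, with a spline of 4 degrees of freedom per library. The genes and lists were chosen with earlier results of these data known. Beside the 10 genes, up to 4 called genes per list by smallest p, or the 2 smallest where fewer than 2 were called, and the 5 most like Hspa5, leaving out symbols of predicted genes (Gm, Rik), were named, of which 1 is not reported here. Genes named outside this rule for context were Eif2ak3, Atf6b, Ddit3, Calr, Syvn1, Atf4, Herpud2, Stt3b and the genes with a promoter motif, chosen after their values were seen. The alternatives tried changed the pseudocount, the filter, the scaling, the weights or the variance prior, or added a replicate block, removal of the length trend and leaving out libraries.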

Additional observations from a re-analysis of the deposited data

Results flagged for a closer look

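In 70 groups of 5 log2(FPKM + 1) values, the library farthest out was tested for standing apart from the other 4. It did in 9 groups. For a group picked without regard to its values chance gives about 1 in 20, but most genes here were picked by the limma test or by likeness to Hspa5, so that rate is not theirs. Among the 10 genes, labelled knockdown 2 was low in Dnajb9 at 30.5 FPKM (others of its group 47.9 to 55.0), and control 5 was low in Dnajc3 at 40.1 FPKM (others 51.0 to 55.8). Labelled knockdown 4 was high in Xbp1 at 86.3 FPKM (others 68.8 to 72.9) and in Atf6 at 12.7 FPKM (others 8.89 to 9.66). Among related genes, control 5 was low in Sesn2 (3.86 FPKM), Fkbp2 (17.6), Rnf5 (24.6) and Srpr (64.2). Labelled knockdown 2 was low in Srp14 (27.7 FPKM).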

How the results depend on the processing

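Atf6 stayed called lower in all 12 other settings and all 10 fits without 1 library (-0.50 to -0.39). Its largest limma adjusted p there was 0.0488. Dnajc3 kept its direction but lost its call with no filter (-0.38), median-of-ratios scaling (-0.33), a replicate block (-0.38), the length trend removed (-0.30) and both of the latter (-0.30). Herpud1 gained a call with median-of-ratios scaling (0.46). Array weights gave calls to Hsp90b1 (-0.31), Xbp1 (-0.30) and Sdf2l1 (-0.91). Creld2 turned to 0.025 with median-of-ratios scaling, 0.0036 with upper-quartile scaling and 0.03 without both control 5 and labelled knockdown 2, where Sdf2l1 was called (-0.83) and Dnajb9 stood at 0.29. The unadjusted exact permutation test put Hspa5 (-0.29), Hsp90b1 (-0.30) and Herpud1 (0.42) under 0.05. The count of genes called lower among the 10 was 1 with no filter, with median-of-ratios scaling (and 1 higher), with the replicate block, with the length trend removed and with both, and 5 with array weights. Over all genes, 511 were higher and 682 lower with no filter, 2047 lower with array weights, 803 lower with the length trend removed, and 489 higher and 653 lower with the block as well. Median-of-ratios scaling gave 1240 higher and 1060 lower, and quantile normalization 1165 and 1181, against 960 and 1300 as reported.

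Without 1 library at a time, values ranged from -0.35 to -0.24 for Hsp90b1, -0.10 to 0.16 for Dnajb9, -0.46 to -0.32 for Dnajc3, -0.13 to 0.15 for Creld2 and -0.99 to -0.59 for Sdf2l1. The 10 genes then had 1 to 3 lower, and all genes 440 to 954 higher and 533 to 1733 lower. No pairing of libraries by replicate number was apparent, though 5 pairs are too few to exclude it. Correlations of same-numbered libraries ran from -0.01 to 0.11, and 1 of 5 controls correlated best with its own number. Causes of these shifts were not tested. Depth could not be recovered, so its effect on precision is unknown.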
